A study of Mus musculus with 23 samples.

Results

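The genes described here encode the constitutive subunits of the mouse proteasome and the factors that help to assemble it. They were taken by symbol, as every Psma, Psmb, Psmc or Psmd gene with a number except Psmb8, Psmb9 and Psmb10, and 36 of the 23284 genes in the table met this rule. By role, the 36 genes fall into 7 alpha and 7 beta subunits of the core particle, 6 ATPases and 11 other subunits of the regulatory particle, 3 assembly chaperones of the regulatory particle, and 2 subunits known from single tissues, Psma8 and Psmb11.

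The proteasome degrades proteins that carry ubiquitin. Its core particle is a barrel of 2 outer alpha rings, which form the gate, around 2 inner beta rings, in which Psmb5, Psmb6 and Psmb7 carry the proteolytic sites. The regulatory particle caps the barrel, binds and unfolds the substrate with its ring of ATPases, and removes ubiquitin with Psmd14. In cells that respond to interferon, Psmb8, Psmb9 and Psmb10 take the places of Psmb5, Psmb6 and Psmb7 and form the immunoproteasome.

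Single-cell RNA-seq had been made from 16 mouse bone marrow mesenchymal stem cells (mMSC1 to mMSC16) and from 5 cells of HL-1 (HL1cm1 to HL1cm5), an immortal line derived from an atrial tumour of a mouse that carried a transgene for the SV40 large T antigen, which served as the negative control. The mMSCs were bought as a stock from 3-month-old male C57BL mice, are labelled C57BL/6J and were used at passages 6 to 11, and the HL-1 cells were used at passages 70 to 85. One population control (PC) of many cells, mMSC-PC or HL1cm-PC, stood beside each cell type, so there were 23 libraries. The HL-1 cells carried a green dye in the cytoplasm (CellTracker Green CMFDA), which is not described for the mMSCs, and cells of both types were caught in the same device. No label names separate cultures, and the cells of each type were therefore handled as 1 sample, with no p-value for any difference between the types.

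Library quality was described by values that bear on the proteasome genes. Genes with a value of 1 FPKM (fragments per kilobase of transcript, scaled by the authors to mapped fragments) or above numbered 5178 in mMSC9 and 5837 in mMSC15, 6496 to 7241 in the other 14 mMSCs, 6428 to 7010 in HL1cm, and 9625 and 9881 in the population controls. Read counts are not in the table, so depth was estimated as the FPKM that 1 read pair per kilobase was worth, which ran from 1.83 in mMSC6 to 10.3 in mMSC9, a larger value meaning a shallower library. HL1cm3 and HL1cm5 stood apart from the other cells. On a median ratio scale over 1521 genes at 1 FPKM or more in all libraries, their log2 levels lay at -0.45 and -0.50, against 0.07 to 0.24 for the other 19 cells. The 7 mesenchymal markers that passed the filter were all at least 2-fold higher in mMSC, with Thy1 listed at 0 in every library, and the 9 cardiomyocyte markers were all at least 2-fold lower, summing to 0 to 65.4 FPKM in mMSC and 32797 to 60014 FPKM in HL1cm. Of 9 macrophage markers, Cd14 and Csf1r were the ones that passed the filter, and the list summed to 3.10 to 369 FPKM in mMSC. Ptprc, Emr1, C1qa, C1qb, Tyrobp and Lyz2 were listed at 0 in every mMSC.

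Nearly every constitutive subunit gene was detected in nearly every cell. In mMSC, 29 of the 36 genes (80.6%) reached 1 FPKM in all 16 cells, beside 9.2% of all genes in the table. In HL1cm, 30 genes (83.3%) did so in all 5 cells, beside 14% of all genes. All 14 alpha and beta subunits of the core particle were among them in both cell types. Leaving aside Psma8 and Psmb11, 13 of 544 values were listed at 0 in mMSC and 7 of 170 in HL1cm.

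Both genes known from single tissues were at or near 0. Psma8, the germ cell alpha subunit (chromosome 18, 14706151 to 14762301, plus strand; GENCODE annotation of GRCm38, the assembly that mm10 names), was listed at 0 in all 23 libraries. Psmb11, the catalytic subunit of cortical thymic epithelium (chromosome 14, 54621433 to 54629556, plus strand), lay between 0 and 1.54 FPKM in mMSC, with 1 FPKM or more in 3 cells, and was listed at 1.13 FPKM in HL1cm3 and at 0 in the other 4 HL1cm. For comparisons a gene had to reach 1 FPKM in 2 or more of the 21 cells, and 35 of the 36 genes and 11850 of all genes passed it, Psma8 being the gene that did not.

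**Figure D1:**
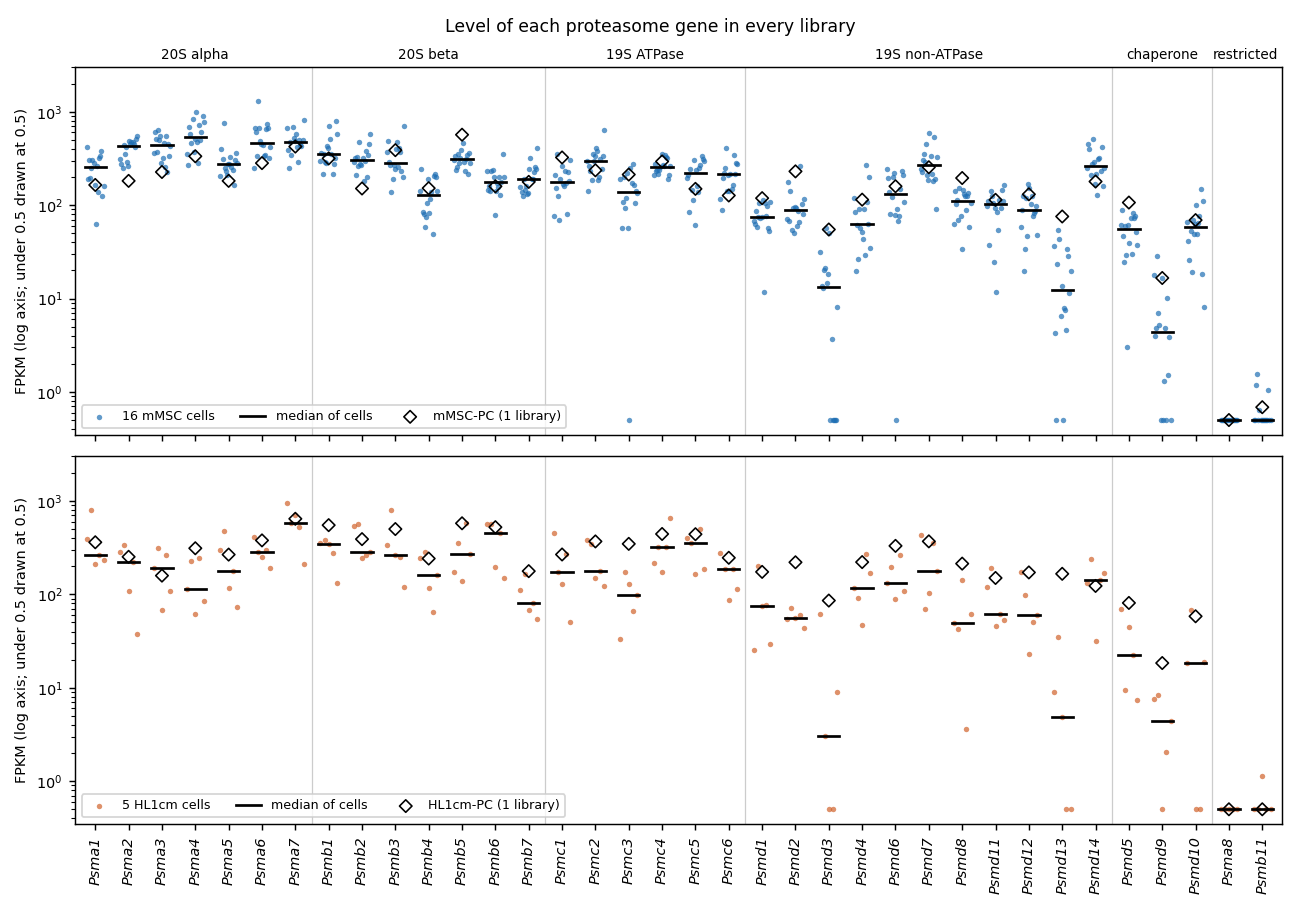
FPKM (log axis) of each of the 36 genes, grouped by role, in the 16 mMSC cells (upper panel) and the 5 HL1cm cells (lower panel), with the median of the cells as a bar and the population control as an open diamond. Alpha and beta subunits lie at 37.3 FPKM or higher in all cells, while Psmd3, Psmd13 and Psmd9 spread down to values drawn at 0.5, which are values under 0.5 or listed at 0.

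The alpha ring was the most abundant group in the single mMSCs. The median of the member medians was 442 FPKM for the alpha subunits, 281 FPKM for the beta subunits, 218 FPKM for the ATPases, 89.3 FPKM for the other regulatory subunits and 55.7 FPKM for the chaperones. In HL1cm the same groups had medians of 223, 272, 183, 60.9 and 18.5 FPKM. Summed over their genes, the alpha subunits lay above the beta subunits in 3 of the 5 HL1cm. In mMSC-PC the alpha subunits summed to 1793 FPKM, under the 1911 FPKM of the beta subunits. The median there was 226 FPKM for the alpha subunits, 177 FPKM for the beta subunits and 224 FPKM for the ATPases. As FPKM is per length, these levels can be set beside each other, but FPKM in these cells also carries the amplification of each transcript.

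The 4 genes with the highest mean log2 FPKM in mMSC were all alpha subunits. Psma4 (chromosome 9, 54950790 to 54958030, plus strand) had a median of 541 FPKM and a range of 268 to 1001 FPKM. Psma6 had a median of 467 FPKM, from 250 to 1288 FPKM. Psma7 had a median of 475 FPKM, from 250 to 824 FPKM, and Psma3 one of 442 FPKM, from 228 to 636 FPKM. No mMSC fell outside a 5.15-fold range for any of these 4 genes. At the other end stood Psmb11, Psmd9, Psmd3 and Psmd13.

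The summed level of the 36 genes in mMSC ran from 6109 FPKM in mMSC11 to 9597 FPKM in mMSC16 with a median of 7531 FPKM and a coefficient of variation of 11.7% (n = 16). As a share of all FPKM in a library it ran from 0.272% to 1.28%, with a coefficient of variation of 34.8% (n = 16), so its evenness depended on the scale. In HL1cm the sums were 8131, 9011, 4407, 6804 and 4279 FPKM in HL1cm1 to HL1cm5, and HL1cm3 and HL1cm5 lay below every other library. On the median ratio scale the HL1cm sums were 6000 to 8522 and the mMSC sums 5370 to 8552, which overlap. The population controls summed to 6866 FPKM for mMSC-PC and 9836 FPKM for HL1cm-PC. In a control of many cells, fewer cells of a kind and less RNA per cell cannot be told apart.

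Cell cycle genes and depth were set beside this sum over the 16 mMSCs, which share chip and processing. Its correlation with the summed FPKM of 18 proliferation genes was r = -0.30 (rho = -0.24, n = 16), and with the FPKM worth of 1 read pair it was r = 0.21 (rho = -0.006, n = 16). Its correlation with the number of genes detected was r = -0.44 (rho = -0.56, n = 16). These are descriptions over cells of 1 sample.

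The composition by role does not depend on how a library is scaled. The alpha subunits made up 33.8% to 49.7% of the FPKM of the 31 canonical subunits in mMSC, with a median of 38.5%, and 32.9%, 33.8%, 35.1%, 29.5% and 22.3% in HL1cm1 to HL1cm5. The beta subunits made up 19.9% to 31.7% in mMSC, with a median of 25.9%, and 27.7% to 34.9% in HL1cm. The ATPases made up 13.3% to 20.4% in mMSC and 17.4% to 29.1% in HL1cm. Each pair of ranges overlapped.

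**Figure D2:**
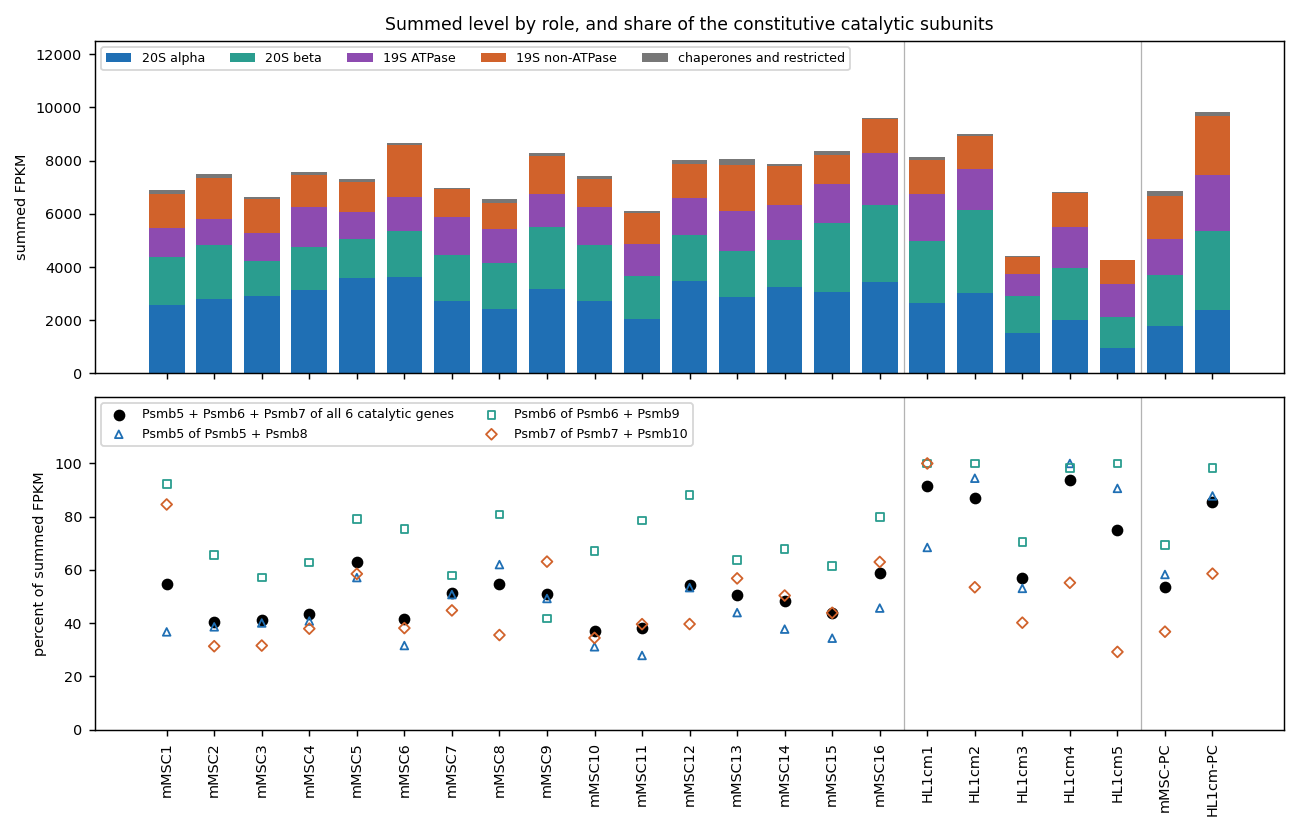
Upper panel, summed FPKM of the proteasome genes in each library, split by role (bars start at 0). Lower panel, the share of the constitutive catalytic subunits in the FPKM of each constitutive and immunoproteasome pair and of all 6 genes. HL1cm3 and HL1cm5 have the shortest bars, and in the lower panel the filled circles lie between 37.0% and 63.0% in mMSC and between 56.8% and 93.9% in HL1cm.

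The catalytic subunits differed in how they stood beside their immunoproteasome counterparts. Psmb5, which carries the chymotrypsin-like site (chromosome 14, 54614119 to 54618022, minus strand), lay between 217 and 465 FPKM in mMSC, the median being 311 FPKM. In HL1cm1 to HL1cm5 it was at 172, 356, 139, 578 and 272 FPKM. The cell types overlapped, with a difference in mean log2 FPKM, mMSC minus HL1cm, of 0.20, and the population controls were at 567 and 577 FPKM. Of the 75-base stretches of the Psmb5 transcript, 330 of 825 also occur in transcripts of other genes (Gm3375 and Mir686), so part of its level could have been assigned to or taken from them.

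Psmb6, which carries the caspase-like site (chromosome 11, 70525367 to 70527858, plus strand), was the member with the lowest difference. It lay between 78.1 and 357 FPKM in mMSC, the median being 175 FPKM, and stood at 562, 569, 196, 458 and 151 FPKM in HL1cm1 to HL1cm5. The difference was -0.94 in log2 FPKM, -1.23 on the median ratio scale and -1.59 without HL1cm3 and HL1cm5, and the population controls differed by -1.72 (159 and 524 FPKM). HL1cm3 and HL1cm5 lay within the range of mMSC, and the other 3 HL1cm lay above it.

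Psmb7, which carries the trypsin-like site (chromosome 2, 38588036 to 38644087, minus strand), lay between 126 and 408 FPKM in mMSC, the median being 189 FPKM. It was at 112, 165, 68.8, 80.4 and 54.8 FPKM in HL1cm1 to HL1cm5, a difference of 1.11 in log2 FPKM. That difference was 0.83 on the median ratio scale and 0.76 without HL1cm3 and HL1cm5, so it passes the 2-fold limit on the FPKM scale and neither of these, and the population controls were both at 177 FPKM. Psmb7 shares 24.1% of its 75-base stretches with Nek6, whose exons overlap it.

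Psmb5, Psmb6 and Psmb7 together made up 37.0% to 63.0% of the FPKM of the 6 catalytic genes in mMSC, with a median of 49.4%. In HL1cm1 to HL1cm5 the share was 91.4%, 86.9%, 56.8%, 93.9% and 74.8%, so HL1cm3 lay within the range of mMSC and the other 4 lay above it. The population controls showed the same order,, at 53.6% for mMSC-PC, 85.6% for HL1cm-PC. By pair, Psmb5 took a median of 40.4% beside Psmb8 in mMSC and 90.6% in HL1cm, Psmb6 took 67.5% beside Psmb9 and 100.0%, and Psmb7 took 41.8% beside Psmb10 and 53.5%.

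Psmb8, Psmb9 and Psmb10 were each at least 2-fold higher in mMSC, on the FPKM scale and on the median ratio scale. Among all genes, 21.4% met that limit on the FPKM scale and 18.5% on the median ratio scale. Psmb8 ranged from 239 to 695 FPKM in mMSC, against 79.1, 20.9, 123, 0 and 28.1 FPKM in HL1cm1 to HL1cm5, with no overlap. Of all genes, 2.26% lay wholly higher in mMSC. Psmb9 ranged from 18.5 to 223 FPKM in mMSC and was listed at 0 in HL1cm1, HL1cm2 and HL1cm5, at 82.0 FPKM in HL1cm3 and at 7.80 FPKM in HL1cm4. Psmb10 ranged from 28.8 to 615 FPKM in mMSC and from 0 to 144 FPKM in HL1cm. The differences were 4.21, 4.24 and 2.35 in log2 FPKM, and 3.91, 4.01 and 2.05 on the median ratio scale. HL1cm3 was the HL1cm with the highest Psmb8 and Psmb9, and of the 8 mesenchymal markers 7 were listed at 0 in it, Cd44 being at 0.858 FPKM. It was also the one HL1cm with the macrophage marker Itgam (1.10 FPKM) and the endothelial marker Pecam1 (6.00 FPKM) above 0. The other 8 macrophage markers were listed at 0 in every HL1cm. Of the other endothelial markers, Cdh5 and Tek were listed at 0 in every HL1cm. Kdr was at 0 in HL1cm3 and above 0 in HL1cm1 (13.8 FPKM) and HL1cm4 (6.31 FPKM). The part of these markers in the Psmb8 and Psmb9 levels of HL1cm3 was not tested. Whether Cd14 and Csf1r, the macrophage markers seen in mMSC, moved with these genes was not tested.

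The constitutive genes as a whole showed no common direction between the cell types that held on every scale. On the FPKM scale 24 of the 35 genes had a positive difference and 11 a negative one, with a median of 0.26 in log2 FPKM beside 0.08 for the 11850 genes. At least 2-fold higher in mMSC were 8 of the 35 genes, where 21.4% of all genes met that limit, and none was at least 2-fold lower, where 21.6% of all genes met it. On the median ratio scale the median was -0.03 (-0.06 for all genes), with 6 genes higher and 2 lower, beside 18.5% and 24.9% of all genes.

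The 2 low HL1cm libraries carried much of the positive direction. Without HL1cm3 and HL1cm5 the median was -0.05 (0.12 for all genes), 16 genes were positive and 19 negative, and 3 genes lay past the 2-fold limit in each direction, beside 22.2% higher and 25.3% lower among all genes. With every library scaled to the same summed FPKM, the median was 0.60 (0.23 for all genes), with 11 genes higher and 0 lower, beside 25.2% and 17.7%. The population controls differed the other way, with a median of -0.54 (-0.27 for all genes), 8 genes positive and 26 negative, and 0 genes at least 2-fold higher and 6 at least 2-fold lower, beside 18.1% and 33.9%.

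**Figure D3:**
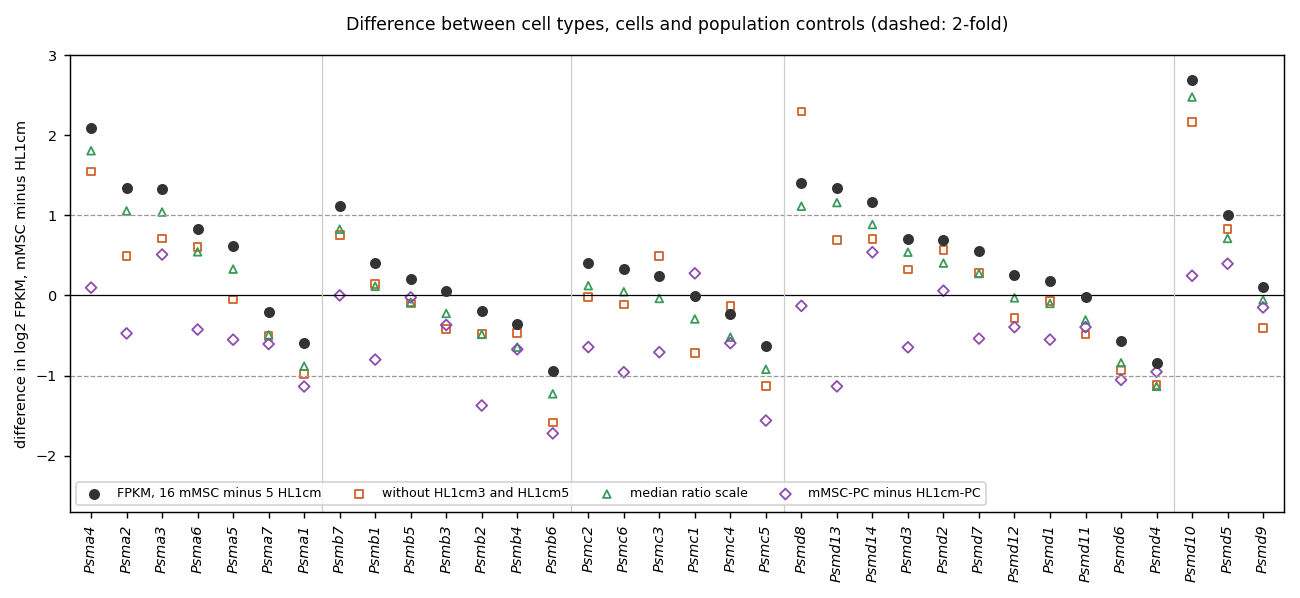
Difference in log2 FPKM, mMSC minus HL1cm, for the 34 genes other than Psma8 and Psmb11, ordered within each role. Filled circles are the 16 mMSC minus the 5 HL1cm, squares leave out HL1cm3 and HL1cm5, triangles use the median ratio scale and diamonds are the population controls (1 library each); most diamonds lie under 0, and Psma4 and Psmd10 have circles, squares and triangles above the 2-fold line.

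By role, the alpha subunits had a median difference of 0.83 in log2 FPKM (0.54 on the median ratio scale, 0.49 without HL1cm3 and HL1cm5), with 3 of 7 genes at least 2-fold higher in mMSC, beside 21.4% of all genes. Without HL1cm3 and HL1cm5 it was 1 of 7, Psma4, and between the population controls the median alpha difference was -0.47. The beta subunits had a median of 0.06 (-0.22 on the median ratio scale), with 1 of 7 genes higher. The 6 ATPases had a median of 0.12 (-0.17 on the median ratio scale), with none past the limit in either direction. The other regulatory subunits had a median of 0.56 (0.27 on the median ratio scale), with 3 of 11 higher, and all 3 chaperones were positive on the FPKM scale, with 1 of 3 past the limit. For the beta subunits and the ATPases the sign thus changed with the scale.

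Psma4, a subunit of the alpha ring, was the only member whose values did not overlap between the cell types. Of all genes, 2.26% lay wholly higher in mMSC and 1.88% wholly lower. A count of 1 in 35 genes is near that share and is not read as a trait of the set. Against 268 to 1001 FPKM in mMSC, Psma4 was at 114, 225, 61.2, 246 and 84.5 FPKM in HL1cm1 to HL1cm5. The difference was 2.09 in log2 FPKM, 1.81 on the median ratio scale and 1.55 without HL1cm3 and HL1cm5. The population controls did not show it, at 334 FPKM for mMSC-PC and 312 FPKM for HL1cm-PC, which is a difference of 0.10. HL1cm-PC lay above all 5 HL1cm cells for this gene. An exon of Psma4 overlaps the annotated gene AY074887, and 16.7% of its 75-base stretches occur in other genes' transcripts, which the reads of a kit that does not mark strand cannot separate by strand.

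The 181 bases before the first annotated start of Psma4 (GRCm38.p6, chr9:54950609-54950789, plus strand) are shown because Psma4 is the member that did not overlap. The capitals mark matches to the GC box GGGCGG on either strand, of which there are 4 in 2 runs.
Psma4: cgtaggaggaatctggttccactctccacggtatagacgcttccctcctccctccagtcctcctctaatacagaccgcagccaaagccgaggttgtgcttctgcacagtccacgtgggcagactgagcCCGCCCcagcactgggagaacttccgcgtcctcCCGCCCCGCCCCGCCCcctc

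In the RefSeq promoters of GRCm38.p6, 250 bases before to 50 bases after the start, 29 of the 36 genes had an entry among 27025 promoters. The GC box GGGCGG occurred on either strand in 18 of the 29 (62.1%), beside 35.9% of all promoters, and the ETS motif CCGGAAG in 9 (31.0%), beside 9.12%. CCAAT occurred in 12 (41.4%), beside 37.9%, and TATAAA in 3 (10.3%), beside 14.2%. AAGATGGC (YY1) was found in 3 (10.3%), beside 2.88%, and GCATGCGC (nuclear respiratory factor) in 2 (6.90%), beside 2.80%, while the core of the Maf recognition element and GCGTGGGCG (EGR) were in none of the 29, beside 0.141% and 0.625%. These are matches of letters in GC-rich promoters and no test was made.

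The factors Nfe2l1 and Nfe2l2 are known to act on proteasome genes through antioxidant response elements, so the core of that element, TGACNNNGC, was searched on both strands too. It occurred in 5 of the 29 promoters (17.2%), beside 12.5% of all. The windows below, in the direction of each gene, include the promoters of the catalytic subunits Psmb5 and Psmb6, and capitals mark the match.
Psmb5 (GRCm38.p6, chr14:54618024-54618052, minus strand): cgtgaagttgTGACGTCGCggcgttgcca
Psmb6 (GRCm38.p6, chr11:70525338-70525366, plus strand): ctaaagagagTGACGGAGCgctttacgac
Psmd9 (GRCm38.p6, chr5:123228149-123228177, plus strand): atctagccggTGACCCCGCccacttccaa
Psmc6 (GRCm38.p6, chr14:45329587-45329615, plus strand): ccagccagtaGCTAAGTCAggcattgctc
Psmd12 (GRCm38.p6, chr11:107479278-107479299, plus strand): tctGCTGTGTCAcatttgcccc

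On the FPKM scale Psmb6 differed by -0.94 in log2 FPKM between the cell types. The other genes with these matches were positive, Psmb5 at 0.20, Psmd9 at 0.11, Psmc6 at 0.33 and Psmd12 at 0.26. The median over the 35 genes was 0.26. On the median ratio scale Psmb5, Psmd9 and Psmd12 were at -0.08, -0.05 and -0.03. The part of the element in these values was not tested. Nfe2l2 itself ranged from 51.3 to 265 FPKM in mMSC and from 0 to 120 FPKM in HL1cm, a difference of 3.38 (3.07 on the median ratio scale). Nfe2l1 ranged from 4.45 to 29.3 FPKM in mMSC and from 3.07 to 33.4 FPKM in HL1cm. Its difference was -0.33 (-0.62 on the median ratio scale, -1.42 without HL1cm3 and HL1cm5), while the population controls differed by 0.63.

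The other genes at least 2-fold higher in mMSC on the FPKM scale included Psma2 and Psma3 of the alpha ring. Psma2 ranged from 249 to 556 FPKM in mMSC, against 283, 338, 108, 223 and 37.3 FPKM in HL1cm1 to HL1cm5, a difference of 1.34 that was 0.49 without HL1cm3 and HL1cm5. Psma3 was at 190, 317, 67.5, 262 and 110 FPKM in HL1cm1 to HL1cm5, a difference of 1.33 that was 0.71 without those 2 cells. The HL1cm values of both genes reached into the range of mMSC, and mMSC-PC was below HL1cm-PC for Psma2 (182 and 252 FPKM) and above it for Psma3 (226 and 159 FPKM). Psma3 shares 21.3% of its 75-base stretches with transcripts of other genes.

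Among the regulatory subunits, Psmd14, the deubiquitinase of the lid, lay between 129 and 511 FPKM in mMSC, the median being 262 FPKM. It was at 131, 237, 31.9, 141 and 169 FPKM in HL1cm1 to HL1cm5, a difference of 1.17 that was 0.89 on the median ratio scale and 0.71 without HL1cm3 and HL1cm5. Psmd8, a subunit of the lid, ranged from 33.9 to 153 FPKM in mMSC and was at 49.97, 42.4, 141, 3.64 and 61.8 FPKM in HL1cm1 to HL1cm5. HL1cm4 was the one HL1cm below every mMSC, and HL1cm3 lay above all but 3 mMSCs. Its difference of 1.40 was 0.57, under the 2-fold limit, without HL1cm4 and 2.30 without HL1cm3 and HL1cm5, and the population controls were close, at 195 and 213 FPKM.

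The chaperone Psmd10, also known as gankyrin (chromosome X, 140948429 to 140956728, minus strand), had the largest difference, 2.69 in log2 FPKM (2.48 on the median ratio scale, 2.16 without HL1cm3 and HL1cm5). It lay between 8.13 and 148 FPKM in mMSC, the median being 57.7 FPKM. In HL1cm1 to HL1cm5 it was at 18.5, 67.6, 0, 0 and 18.7 FPKM, so the difference rests in part on 2 cells where it was listed at 0. The population controls were at 69.1 and 58.3 FPKM.

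On the other side, the lowest differences after Psmb6 were those of Psmd4, Psmc5 and Psma1. Psmd4, a ubiquitin receptor, lay between 19.6 and 269 FPKM in mMSC, the median being 62.2 FPKM, and was at 118, 92.3, 47.4, 270 and 169 FPKM in HL1cm1 to HL1cm5, a difference of -0.85. Psmc5, an ATPase, ranged from 60.9 to 339 FPKM in mMSC and was at 403, 354, 166, 502 and 188 FPKM in HL1cm1 to HL1cm5, a difference of -0.64. Psma1 differed by -0.60. Without HL1cm3 and HL1cm5 the 3 differences were -1.12, -1.13 and -0.98, on the median ratio scale -1.13, -0.92 and -0.88, and between the population controls -0.95, -1.56 and -1.14. These 3 genes and Psmb6 were lower in mMSC on the FPKM, median ratio and equal-sum scales, without the 2 cells and in the population controls, though the cells of the 2 types overlapped.

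The spread between mMSC cells was small for most members. The median SD was 0.60 in log2 FPKM over 35 genes, beside 1.38 over the 10867 genes that reached 1 FPKM in 2 mMSCs or more, and 30 of the 35 lay under that median. The gap was smaller among genes of like level. For those whose mean log2 FPKM lay between 6.30 and 8.20, the middle range of the members, the median SD was 0.64 for 17 members and 0.77 for all 603 genes.

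In HL1cm the median SD was 0.91 for 34 members and 1.501 for 8244 genes. Among genes of like level it was 0.90 for 16 members and 0.83 for 718 genes, with the members above the other genes. Without HL1cm3 and HL1cm5 the median over the members was 0.70.

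The steadiest members in mMSC after the near-absent Psmb11 were Psmc4, Psmb5 and Psma2. Psmc4, an ATPase (chromosome 7, 28041707 to 28050101, minus strand), had an SD of 0.27 in log2 FPKM and ranged from 193 to 351 FPKM, a 1.83-fold range over 16 cells. Psmb5 had an SD of 0.29 and a 2.14-fold range, and Psma2 an SD of 0.37 and a 2.23-fold range. In HL1cm the SDs of the same genes were 0.74, 0.82 and 1.30, over 5 cells that include HL1cm3 and HL1cm5.

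**Figure D4:**
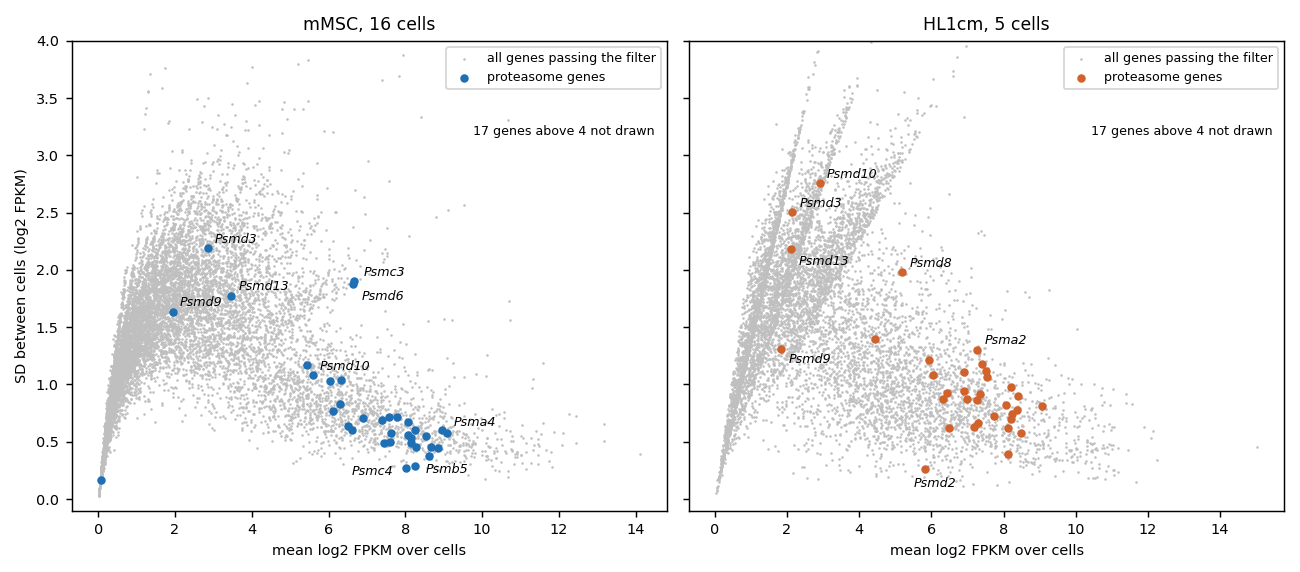
SD between cells against the mean over cells, both in log2 FPKM, for all genes that passed the filter in each cell type (grey) and for the proteasome genes (coloured), in 16 mMSC (left) and 5 HL1cm (right); 17 genes with an SD above 4 in each panel are not drawn. Most proteasome genes lie in the lower right, Psmc4 and Psmb5 are at 0.27 and 0.29 in mMSC, and Psmc3 and Psmd6 stand above genes of like level because each was listed at 0 in mMSC9.

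The 4 most variable members in mMSC were Psmd3, Psmc3, Psmd6 and Psmd13, with SDs of 2.19, 1.90, 1.88 and 1.78 in log2 FPKM. For Psmc3, an ATPase, and Psmd6, a lid subunit, 1 cell set the value. Psmc3 ranged from 56.8 to 272 FPKM and Psmd6 from 67.3 to 241 FPKM in the other 15 cells, and both were listed at 0 in mMSC9, the shallowest library. Whether these values of 0 stand for a missed transcript, a failed estimate or an absent transcript was not tested.

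Psmd3 and Psmd13, both lid subunits, were low in most cells. Psmd3 was listed at 0 in mMSC10, mMSC12, mMSC13, mMSC14 and mMSC15 and reached 56.3 FPKM in mMSC6, with a median of 13.3 FPKM. In HL1cm1 to HL1cm5 it was at 62.2, 3.08, 0, 0 and 9.05 FPKM. Psmd13 was listed at 0 in mMSC3 and mMSC9 and reached 54.2 FPKM in mMSC5, with a median of 12.5 FPKM, and stood at 8.99, 34.7, 4.87, 0 and 0 FPKM in HL1cm1 to HL1cm5. By the estimate of depth, the median Psmd3 value in mMSC stood for 8.32 read pairs and the median Psmd13 value for 6.28, against 86.1 for Psmb5 and 218 for Psma4. Psmd13 shares 13.99% of its 75-base stretches with Sirt3, whose exons overlap it.

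The chaperone Psmd9 was the lowest of the other members, with a median of 4.37 FPKM in mMSC, a maximum of 28.8 FPKM in mMSC4 and a value of 0 in mMSC7, mMSC9, mMSC12 and mMSC16. Its median value stood for 4.94 read pairs.

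On the FPKM scale the members showed little joint variation from cell to cell. Over the 16 mMSCs the median Pearson correlation of the 595 pairs of members was -0.003, with quartiles of -0.16 and 0.20. The 603 genes of like level gave the same median of -0.003 with quartiles of -0.19 and 0.20. The beta ring had the highest median within a role, 0.18 over 21 pairs, against -0.03 for the alpha ring, -0.04 for the ATPases and -0.002 for the other regulatory subunits. The highest pair was Psmc3 with Psmd6 at r = 0.86, both listed at 0 in mMSC9, followed by Psma2 with Psmb7 at r = 0.83, and the lowest was Psma1 with Psmb1 at r = -0.74. For all 595 pairs the median depended on the scale. It was -0.004 on the median ratio scale and 0.44 with every library scaled to the same summed FPKM. No value for genes of like level stands beside the 0.44. The pairs share the depth and scale of each library, and with n = 16 cells of 1 sample they are descriptions.

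The canonical subunits assemble in equal numbers within the core particle and within the regulatory particle. Their levels spanned a narrower range in the population controls than in the cells. Across the 31 canonical subunits the levels spanned 10.3-fold in mMSC-PC (54.8 to 567 FPKM) and 36.9-fold in the mean of the 16 mMSCs (15.7 to 580 FPKM). The SD across these genes was 0.72 in log2 FPKM in mMSC-PC and 1.24 for the cells' mean FPKM, put on the log2 scale. In HL1cm the span was 7.51-fold in HL1cm-PC and 61.5-fold in the mean of the cells, with SDs of 0.71 and 1.31. Psmd3 and Psmd13 set the low end in the cells. Without them the span over 29 subunits was 4.98-fold in mMSC-PC and 7.57-fold in the mean of the mMSCs, with SDs of 0.60 and 0.85, and 5.24-fold in HL1cm-PC and 10.4-fold in the mean of the HL1cm, with SDs of 0.64 and 0.88. This comparison was added after the values were seen. Within single cells the SD ran from 1.09 in mMSC1 to 2.67 in mMSC9, and every mMSC and HL1cm lay above its population control, with and without Psmd3 and Psmd13.

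In mMSC the sign of the difference between control and cells varied by role. All 7 alpha subunits were lower in mMSC-PC than in the mean of the mMSCs, with a median difference, control minus cells, of -0.80 in log2 FPKM, while 9 of 11 non-ATPase regulatory subunits and all 3 chaperones were higher, with medians of 0.55 and 1.025. In HL1cm the median was positive in every role, at 0.22 for the alpha subunits (5 of 7 higher in the control), 0.50 for the beta subunits (7 of 7), 0.49 for the ATPases (6 of 6), 1.08 for the non-ATPase subunits (10 of 11) and 1.48 for the chaperones (3 of 3). The alpha subunits made up 26.9% of the canonical subunits' FPKM in mMSC-PC, under all 16 cells, and the non-ATPase subunits 24.4%, above all 16 cells (13.2% to 22.6%). In HL1cm-PC the alpha share of 24.5% lay within the HL1cm cells, and the non-ATPase share of 23.01% lay above all 5 (13.9% to 20.8%).

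In mMSC-PC, 5 of the 35 genes were at least 2-fold higher than the mean of the cells and 2 at least 2-fold lower, beside 22.7% and 17.5% of all genes. The median over the members was 0.16, and 0.00 over all genes. The largest differences were those of Psmd13 (75.6 FPKM in mMSC-PC, above every mMSC) at 2.03 and Psmd3 (54.8 FPKM) at 1.80, and the lowest those of Psma2 at -1.14 and Psmb2, a beta subunit, at -1.10. In HL1cm-PC, 12 genes were at least 2-fold higher and 0 lower, beside 33.4% and 11.4% of all genes, with a median of 0.67 that was 0.38 without HL1cm3 and HL1cm5, and 0.34 over all genes. Psmd13 stood at 166 FPKM in HL1cm-PC, above every HL1cm cell. Each control is 1 library, so these differences have no replicate check.

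**Figure D5:**
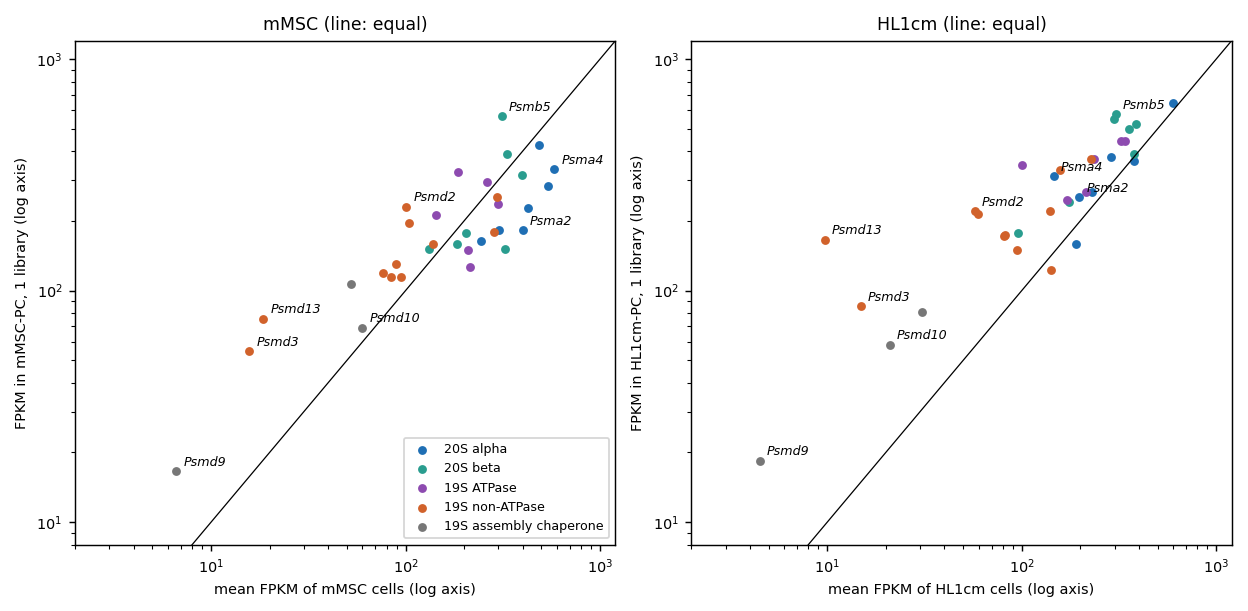
FPKM in the population control against the mean FPKM of the single cells (both log axes) for the 34 genes other than Psma8 and Psmb11, coloured by role, in mMSC (left) and HL1cm (right); the line marks equal values. The alpha subunits lie under the line in mMSC, and Psmd13, Psmd3 and Psmd9 lie furthest above it in both.

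Length and level were set beside this difference. Across the 31 subunits, whose longest annotated transcripts run from 766 to 3112 bases, the correlation of control minus cells with log2 length was r = 0.25 in mMSC and r = 0.31 in HL1cm, against -0.03 and -0.08 over all genes with a length. Its correlation with the level in the cells was r = -0.83 in mMSC and r = -0.86 in HL1cm (31 subunits), but the cells' level enters both measures. These are correlations across genes, which are not independent replicates.

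Genes that act with the proteasome were described from lists chosen beside the members. Of the activators and the inhibitor, Psme1 and Psme2, which form the interferon-inducible cap, were 2-fold or more higher in mMSC, with differences of 1.80 and 2.26 in log2 FPKM (1.52 and 1.97 on the median ratio scale). Psme2 ranged from 471 to 1402 FPKM in mMSC and from 71.0 to 273 FPKM in HL1cm, without overlap, and the population controls were at 738 and 181 FPKM. Among all genes, 2.26% lay wholly higher in mMSC. Psme4 was the 1 of 5 at least 2-fold lower, with a median of 8.19 FPKM in mMSC and 21.4 FPKM in HL1cm. Of the 5 assembly factors of the core particle, Psmg1, Psmg2 and Psmg3 were at least 2-fold lower and Psmg4 higher. Their differences were -1.50, -1.21, -3.39 and 1.70, and those between the population controls -2.32, -0.76, -2.34 and -0.64. Zeros enter these values. Psmg1 was listed at 0 in 7 mMSCs and 1 HL1cm, Psmg3 in 8 mMSCs, and Psmg4 in 4 mMSCs and 3 HL1cm. Of all genes, 21.6% were at least 2-fold lower and 21.4% higher. The difference of Pomp, which guides the beta ring, was 0.95 (0.66 on the median ratio scale).

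Of 7 other subunits and bound enzymes, the deubiquitinase Uchl5 (-1.43, and -0.50 without HL1cm3 and HL1cm5) and AI314180 (-1.97), the mouse Ecm29 gene, were at least 2-fold lower in mMSC, and Txnl1 (1.06, and 0.78 on the median ratio scale) was higher on the FPKM scale. The unfoldase Vcp was at least 2-fold lower, at 8.94 to 92.1 FPKM in mMSC and 75.9 to 229 FPKM in HL1cm, a difference of -1.79, while the shuttle factor Ubqln2 was higher, at 2.43. None of 5 ubiquitin genes passed the limit on the FPKM scale, and Ubb was lower on the median ratio scale, at -1.21. Of 18 proliferation genes, 15 were at least 2-fold lower in mMSC and none higher, beside 21.6% of all genes lower and 21.4% higher.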

How the data were processed

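The authors captured cells on a Fluidigm C1 chip, amplified cDNA with SMARTer, made Nextera XT libraries and sequenced read pairs of 75 bases. Per the labels, TopHat2 2.0.12 aligned them to mm10 and Cufflinks 2.2.1 gave the deposited FPKM values, 1 table of 23284 genes by 23 libraries. Depth is not given in the table, so it was estimated as the 5th percentile of FPKM times length over genes with 1 annotated transcript longer than 800 bases.

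FPKM values under 1 were set to 1 before log2, so differences understate the change of low genes. Genes needed 1 FPKM in at least 2 of 21 cells, and the fold limit was 2. No test was run, since each cell type is 1 sample. Alternatives were other scalings (equal sums as in TPM, a median ratio), log2(FPKM + 1), other floors and filters, and leaving out cells. The members and lists were chosen with earlier results of these data known. Named with values were the catalytic and tissue-restricted subunits, the 4 extreme members by level, SD and difference, members at 0 in 1 to 3 cells despite a median of 50 FPKM, and the 2 furthest from mMSC-PC each way. Psmb1, Psmd14, Psmc6 and Psmd12 were added after their values were seen. Annotation was GENCODE M21. Functions were tested on simulated data. Python 3.11.15, numpy 2.4.6, pandas 2.3.3 and scipy 1.17.1 were used.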

Additional observations from a re-analysis of the deposited data

Results flagged for a closer look

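In each group of 5 HL1cm values, a cell was marked when its gap to the next value took an unusually large part of the group's range, by Dixon's 95% limit. Of 39 such groups, 2 were marked, and chance marks about 1 in 20. Psmb11 was at a log2 FPKM of 0.18 in HL1cm3 and at the floor in the other 4 cells, a difference at the edge of detection. The immunoproteasome gene Psmb10 was at the floor of 0 on the log2 scale in HL1cm1, where it was listed at 0, against 65.3 to 144 FPKM in the other 4 HL1cm cells.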

How the results depend on the processing

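The 13 summary results were recomputed under 98 alternatives. Of these, 84 stayed within the spread between cells, or within 1.5 times for a count or an SD, or within 0.1 for a correlation. For the median difference between the cell types that spread was 0.46 in log2 FPKM, wider than the value of 0.26 itself. It therefore took in -0.03 on the median ratio scale, -0.05 without HL1cm3 and HL1cm5 and 0.60 with equal sums. The count thus says little about the sign or size of that difference. Of 242 recomputed differences of the 22 named genes, 241 moved by no more than the SD of that gene over the 5 HL1cm cells. This limit is wide, at 2.76 in log2 FPKM for Psmd10 and 1.30 for Psma2, so the count says little about steadiness. The fall of Psma2 from 1.34 to 0.49 without HL1cm3 and HL1cm5 lay within it. No named gene at least 2-fold apart on the FPKM scale changed sign. Leaving out HL1cm1 to HL1cm5 in turn gave 5 (without HL1cm5) to 10 genes at least 2-fold higher in mMSC and 0 to 2 (without HL1cm3) lower, beside 8 and 0. Without HL1cm3 and HL1cm5, chosen after seeing the data, there were 3 higher and 3 lower. The count of lower genes was 2 on the median ratio scale, 1 with medians over cells, and 2 with equal sums over genes of at least 200 bases, also chosen after seeing the data. Equal sums over all genes gave a median SD of 0.93 in mMSC, a median pair correlation of 0.44, a median of 0.57 for mMSC-PC minus its cells, and median sums of 8669 in mMSC and 3603 in HL1cm. Equal sums over genes of at least 200 bases gave a median sum of 11058 in HL1cm. The cause was not tested, and beside it the top gene of a cell took 3.02% to 72.3% of its summed FPKM. The median difference of all genes was 0.08 in FPKM, -0.06 on the median ratio scale and 0.23 with equal sums. No paired analysis was possible because no test was run and the replicate numbers only name cells. Values of Psmd3, Psmd9 and Psmd13 stand for few read pairs, so their spread and zeros are not resolved at this depth.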
